A study of Mus musculus with 24 samples.

Results

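Interferon gamma (IFNg) was compared with no stimulation in cultured microglia, the resident macrophages of the brain, from neonatal mice. The comparison uses 6 of the 24 RNA sequencing libraries of the series, chosen by their labels and by no measured value. In 3 libraries the cells had received IFNg for 6 h, and in 3 they were unstimulated. Each library carries a replicate number from 1 to 3, and libraries of the same number were compared with each other. All 6 came from MRL/lpr mice, a lupus-prone strain, so the unstimulated cells carry the lpr mutation of the death receptor gene Fas as well. Brains were digested with enzymes, CD11b-positive cells were taken with magnetic beads, and a culture period of 48 h with serum preceded the stimulation. A further 12 neonatal MRL/lpr libraries, 3 per group, came from cells given IFNa, TNFa, IL-6 or the mixture of these cytokines with IFNg for 6 h, and 6 libraries of adult microglia were not used here. The sources used here give no cytokine doses, and do not say how many mice stand behind a library or what a replicate number stands for. If the replicates share a cell preparation, the p-values measure only the spread between these samples, which may be technical.

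IFNg is the type II interferon, made mainly by T cells and NK cells. It binds the receptor chains IFNGR1 and IFNGR2, whose kinases JAK1 and JAK2 pass the signal to STAT proteins. Gamma-activated sequences (GAS) in promoters carry the response, and among the genes switched on is the transcription factor IRF1, which binds interferon-stimulated response elements (ISRE). In macrophages and microglia IFNg is known for raising antigen presentation, GTPases that attack intracellular pathogens, and chemokines that draw T cells, and SOCS proteins then damp the signal. Type I interferons such as IFNa use another receptor and act mainly through the ISRE.

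The counts of reads per gene summed to 12.59 to 17.39 M per library over the 6 libraries, and 14626 genes passed the filter on low counts. Levels below are CPM (counts per M counts, scaled by TMM), given in the order of replicate numbers 1, 2 and 3. Differences are log2 fold changes of IFNg over unstimulated with their standard error (SE), and genes count as called where the adjusted p was under 0.05 in edgeR's quasi-likelihood F test with the replicate number as a block. The replicate numbers differed in both groups. On the second principal component of all 18 neonatal libraries (22.3% of the variance), number 1 stood apart, with IFNg library 1 at 49.36 and the other IFNg libraries at -35.32 and -19.45, and unstimulated library 1 at 45 and the other unstimulated libraries at -50.45 and -49.82. Number 3 stood apart in antiviral genes. Its share of reads in 38 antiviral genes of the type I interferon response was 2.02% with IFNg and 1.06% unstimulated, against 1.39% and 1.42% in the other IFNg libraries and 0.497% and 0.517% in the other unstimulated ones. The part of this in the results was not tested, and a fold change below is an average over the 3 numbers.

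The cells carried markers shared by microglia and other macrophages. The 12 microglia and macrophage markers summed to 10349 to 13020 CPM in IFNg libraries and 9918 to 12880 CPM in unstimulated libraries. Among them are Csf1r, Itgam, Aif1, Cx3cr1, P2ry12 and Trem2, of which P2ry12, a marker of microglia, added little to the sums. Csf1r, the receptor for the growth factor that keeps microglia alive, had 2179, 2498 and 2534 CPM with IFNg and 1744, 2195 and 2623 CPM unstimulated. Tmem119, a marker of microglia in the brain, was low in every library, at 2.05, 0.962 and 1.75 CPM with IFNg and 7.10, 7.24 and 5.51 CPM unstimulated. Among defining lymphocyte genes, Cd8a, Prf1 and Cd79a had 0 reads in all 6 libraries, and the T cell receptor gene Cd3e had 6 reads over the IFNg group and 1 over the unstimulated group. Other lymphocyte genes too rare to be tested went both ways. Cd3d had 6 reads with IFNg and 14 unstimulated, Cd3g 8 and 10, Trac 11 and 23, and Gzmb 0 and 7. The B cell gene Ms4a1 had 3 reads with IFNg and 0 unstimulated. The 7 monocyte markers summed to 163 to 186.6 CPM with IFNg and 37.1 to 59.13 CPM unstimulated, while their median log2 fold change was -0.66. Called were 2 of them, both higher. These were the integrin Itga4 (2.22 ± 0.17) and Plac8, whose adjusted p was 0.134 without IFNg library 3 and 0.0561, 0.0879 and 0.123 without unstimulated library 1, 2 or 3. The chemokine receptor Ccr2, which defines monocytes, had 0.904, 0.412 and 1.49 CPM with IFNg and 1.87, 1.09 and 2.02 CPM unstimulated. The 7 neutrophil markers tested summed to 8.92 to 27.71 CPM with IFNg and 7.368 to 123.4 CPM unstimulated, and 3 of them were called lower, but 0 without IFNg library 1 and 1 without IFNg library 3, unstimulated library 1 or unstimulated library 2. The 8 astrocyte markers summed to 63.7 to 342.3 CPM with IFNg and 37.95 to 327.5 CPM unstimulated, with number 1 the highest of each group, and 1 was called, higher. The 8 border macrophage markers tested summed to 883 to 1812 CPM with IFNg and 704.8 to 1651 CPM unstimulated, above the monocyte, neutrophil and astrocyte sums. Of the genes tested in the other marker lists, called were 1 of 8 for border macrophages, 1 of 2 for T and NK cells (Lck), 1 of 3 for B cells (Ighm), 1 of 2 for dendritic cells (Clec9a) and 1 of 6 for endothelial cells, all higher. The calls for border macrophages and dendritic cells were lost without the number 1 libraries, and that for astrocytes without the number 2 libraries or without the block. For the oligodendrocyte lineage 1 of 8 was called higher and 2 lower, but 0 higher without IFNg library 1, IFNg library 2 or unstimulated library 2, 1 lower without IFNg library 2, unstimulated library 2 or unstimulated library 3, and 0 lower without the block. Of the other lists, 0 were called of 7 for neurons, 8 for mural cells and fibroblasts and 1 for erythroid cells. The part of other cells in the results was not tested, and in bulk libraries fewer cells of a type and less RNA per cell cannot be told apart.

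After 6 h of IFNg, 3468 of the 14626 genes tested were called (23.7%), of which 2156 were higher (14.7%) and 1312 lower (8.97%). Counts of calls in the gene lists below are to be read beside these shares over all genes. The larger changes were mostly increases: 316 genes rose and 87 fell by 4-fold or more, and 111 rose and 12 fell by 16-fold or more. These classes use the fitted fold. For genes with 0 unstimulated reads only a lower bound against 3 counts is known, which can lie below these limits. It was 3.56-fold for Etv2 and 13.9-fold for Alox12. Of the genes called higher, 2147 (99.6%) were higher within each of the 3 numbers, as were 1305 (99.5%) of the genes called lower in the other direction. The test blocked on these numbers, so the calls themselves favour such agreement, and the matching share over all genes was not counted. The median log2 ratio of the genes called higher was 0.81, 0.80 and 0.72 in numbers 1, 2 and 3, and that of the genes called lower was -0.65, -0.82 and -0.77. A different measure is that the 2 groups do not overlap, which held for 85.2% of the genes called higher and 81.1% of those called lower. Over all genes, called or not, the 3 IFNg libraries lay above the 3 unstimulated ones for 17.0% and below them for 13%. Among protein-coding genes 25.5% were called, against 9.38% of the 640 long noncoding RNA genes tested. The split between directions depends on the scaling. Scaled by total counts alone, the median over all genes moved to -0.20 from -0.02 with TMM, and 36.9% of the calls were higher, against 62.2% with TMM. Small differences should therefore be read against that shift. Without the number 1 libraries of both groups 1984 genes were called.

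**Figure D1:**
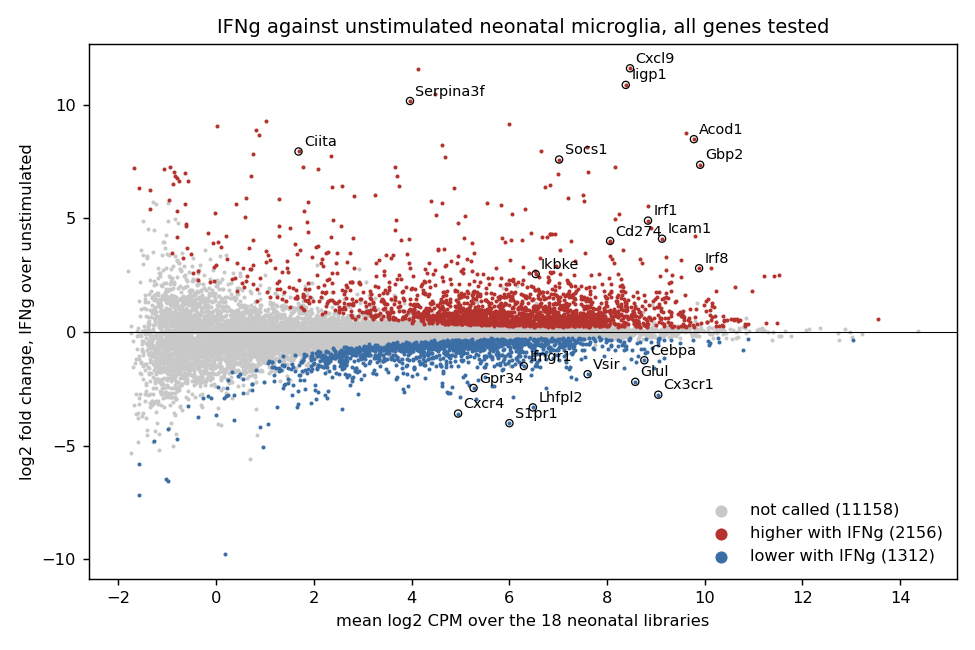
Log2 fold change of IFNg over unstimulated microglia (vertical axis) against the mean log2 CPM over the 18 neonatal libraries (horizontal axis), 1 point per gene tested. Red points are the 2156 genes called higher with IFNg and blue points the 1312 called lower; the points above a log2 fold change of 4 are almost all red, and Iigp1, Cxcl9, Gbp2 and Socs1 lie near the top.

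The receptor and its kinases moved in different directions. Ifngr1, the chain that binds IFNg, had 39.8, 40.0 and 45.1 CPM in IFNg libraries, against 108, 120.1 and 124 CPM in unstimulated libraries. It fell in all 3 numbers, with a log2 fold change of -1.49 ± 0.14 (SE) (adjusted p = 5.2e-07). Ifngr2, the partner chain, was not called, at 0.06 ± 0.10. Jak2, the kinase bound to IFNGR2, rose by 1.02 ± 0.14, and Jak1, the kinase bound to IFNGR1, by 0.53 ± 0.09. Stat3, the main STAT protein of IL-6 signalling, reached 440.1, 439.7 and 380.2 CPM with IFNg, against 98.1, 91.2 and 105 CPM unstimulated (2.1 ± 0.14). Stat5a (0.92) and Stat5b (1.09), which carry growth factor signals and neighbour Stat3, rose, and Stat6, the STAT of IL-4, did not pass the test (0.02). Of the 11 receptor, JAK and STAT genes tested of 12 listed, 8 were called higher and 1 lower, with a median log2 fold change of 0.92 beside -0.02 over all genes.

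Of the IRF and BATF transcription factors, Batf2, Irf1 and Irf8 had the largest folds. Irf1 had 1199, 1385 and 1155 CPM with IFNg, against 34.0, 37.4 and 57.4 CPM unstimulated, a log2 fold change of 4.91 ± 0.42 (adjusted p = 8.2e-06). Irf8, which sets macrophage and microglial identity and works with IRF1, had 2353, 2666 and 2257 CPM with IFNg, against 268, 361 and 423 CPM unstimulated (2.81 ± 0.42). The lowest IFNg library lay far above the highest unstimulated library for both genes. Batf2, a partner of IRF1 in activated macrophages, had 113, 137 and 145 CPM with IFNg, against 1.87, 2.90 and 7.09 CPM unstimulated (5.18 ± 0.52). Batf3 (2.19), Batf (1.75), Irf5 (1.31) and Irf2 (1.17) rose less. The 3 factors most tied to type I interferon, Irf3 (0.09), Irf7 (0.64) and Irf9 (-0.23), did not pass the test. In all, 7 of 12 IRF and BATF genes were called higher and 0 lower, with a median of 1.24.

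The inhibitors of this signal included some of the genes that changed most. Socs1, which blocks JAK2 and is the main brake on IFNg, had 389, 477 and 329 CPM with IFNg, against 2.32, 1.87 and 2.02 CPM unstimulated (7.60 ± 0.85, adjusted p = 6.8e-05). Socs3, which acts mainly on IL-6-type receptors, had 149, 172 and 108 CPM with IFNg, against 7.49, 0.845 and 2.08 CPM unstimulated (5.41 ± 0.58). Unstimulated library 1 had more Socs3 than the other two, but all 3 lay below every IFNg library. The phosphatases Ptpn2 (1.04) and Ptpn6 (1.13), which remove phosphate from JAK and STAT proteins, rose to a smaller degree. Socs6, another member of the SOCS family, fell, with 38.7, 41.1 and 43.1 CPM with IFNg against 83.8, 97.1 and 91.1 CPM unstimulated (-1.15 ± 0.11). Of 17 inhibitors tested, 9 were called higher and 1 lower (median 0.50). Usp18, the inhibitor of the type I receptor, was at 0.91 ± 0.47 and was not called.

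**Figure D2:**
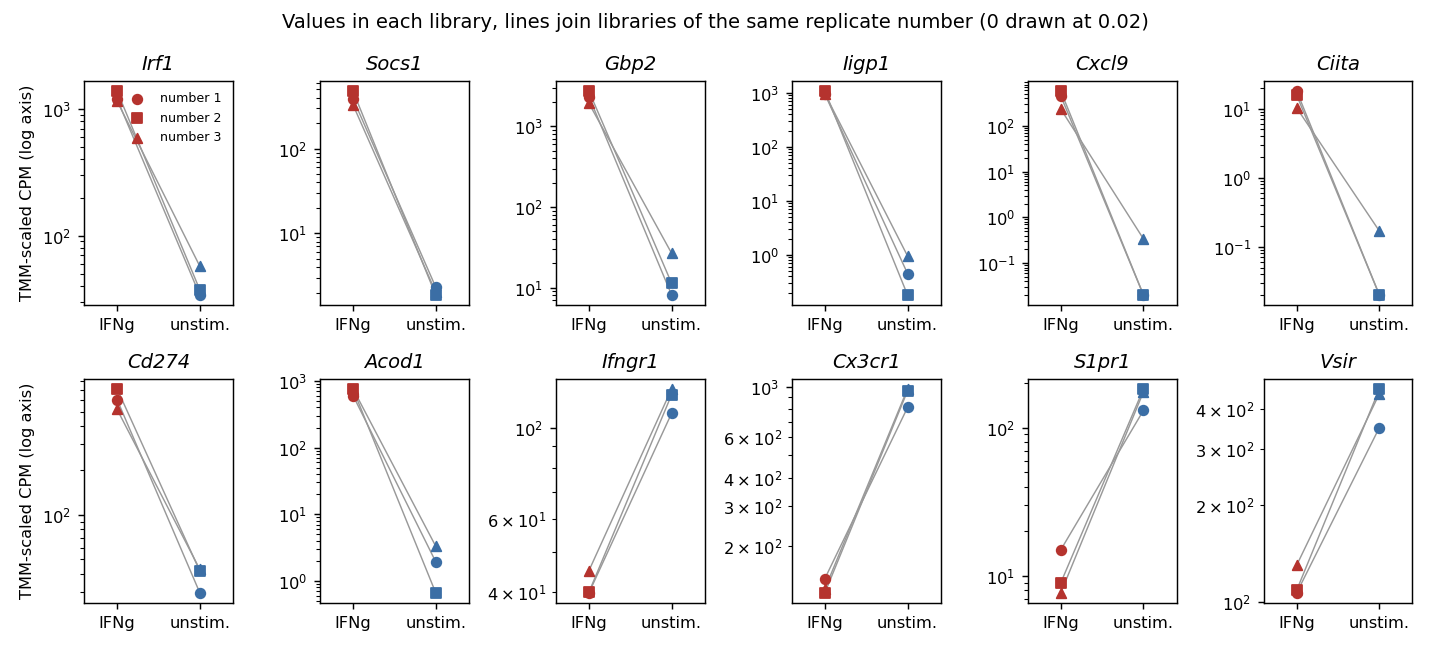
TMM-scaled CPM (log axis, 0 drawn at 0.02) of 12 genes in each IFNg library (left, red) and unstimulated library (right, blue), with lines joining libraries of the same replicate number. The groups do not overlap in any panel: Irf1, Socs1, Gbp2, Iigp1, Cxcl9, Ciita, Cd274 and Acod1 were higher with IFNg, and Ifngr1, Cx3cr1, S1pr1 and Vsir lower.

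Guanylate-binding proteins (GBPs) and immunity-related GTPases (IRGs) coat and break the vacuoles of intracellular pathogens, and many of the largest folds of the response were among them. All 11 GBP genes listed were called higher, with a median log2 fold change of 7.25, or 6.42 when genes with 0 unstimulated reads were placed at their lower bound. Of the 9 IRG genes tested of 10 listed, 8 were called higher (median 5.20), and Irgq was not (-0.32 ± 0.19). Together these genes took 0.912%, 0.966% and 0.83% of all reads with IFNg, against 0.0298%, 0.0302% and 0.0597% unstimulated. Gbp2 had 2335, 2734 and 1930 CPM with IFNg, against 8.07, 11.3 and 26.6 CPM unstimulated (7.36 ± 0.55, adjusted p = 3.3e-06), and at 2820 TPM (transcripts per M, which corrects for gene length) it was the highest of them. Gbp5 (7.25), which also promotes inflammasome assembly, Gbp4 (8.17) and Gbp3 (4.98) followed the same direction. Iigp1, an effector IRG protein, had 946, 1076 and 961 CPM with IFNg, against 0.452, 0.181 and 0.956 CPM unstimulated (10.88 ± 1.15). Irgm1, a regulatory member that guards the cell's own membranes, was already expressed without stimulation, at 1201, 1397 and 1316 CPM with IFNg against 100.1, 116 and 248 CPM unstimulated (3.19 ± 0.37). Igtp and Irgm2, which are the other regulatory members, rose by 4.58 ± 0.52 and 3.60 ± 0.45. Gbp11 had 221 reads over the IFNg group and 0 unstimulated, at least 78.8-fold higher, and Tgtp1 had 1103 reads and 0, at least 393-fold higher, each against a floor of 3 counts over the unstimulated group. Gbp10 had 328 reads against 2, a ratio of 175 (95% counting interval 48.2 to 1450). Genes as rare as these in unstimulated cells passed the filter through stimulated libraries only. Tgtp1 and Tgtp2, and Gbp6 and Gbp10, are near-identical copies whose reads may have been split or lost, so their single values are uncertain.

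Promoters of these and other IFNg-responsive genes were searched for the GAS motif (TTCNNNGAA) and the core of the ISRE (GAAA, any 2 bases, then GAAA), on both strands, where N is any base. On the other strand the core reads TTTC, any 2 bases, TTTC. The sequences printed here are the last 120 bases before the annotated start, from RefSeq on GRCm38.p6, written 5′ to 3′ in the direction of the gene, with every motif match in capitals. The first 3 belong to genes with a GAS match alone, a transcription factor (Irf1), an adhesion molecule (Icam1) and an Fc receptor (Fcgr1). Socs1 has ISRE matches that overlap. Gbp7, Tgtp2, Igtp and Irgm2 hold both motifs, at the positions given after the sequences.
Irf1 chr11:53769894-53770013 (+ strand): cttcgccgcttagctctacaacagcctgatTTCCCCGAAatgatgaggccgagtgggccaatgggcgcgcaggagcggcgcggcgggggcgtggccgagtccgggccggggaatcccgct
Icam1 chr9:21015820-21015939 (+ strand): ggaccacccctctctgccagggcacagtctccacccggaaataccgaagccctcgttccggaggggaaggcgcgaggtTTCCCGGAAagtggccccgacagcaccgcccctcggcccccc
Fcgr1 chr3:96293970-96294089 (- strand): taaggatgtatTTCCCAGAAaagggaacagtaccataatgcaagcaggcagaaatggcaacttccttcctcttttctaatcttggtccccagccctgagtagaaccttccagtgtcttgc
Socs1 chr16:10785537-10785656 (- strand): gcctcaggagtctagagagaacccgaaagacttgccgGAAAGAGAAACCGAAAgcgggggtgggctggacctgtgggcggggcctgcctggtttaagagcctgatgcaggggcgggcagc
Gbp7 chr3:142530216-142530335 (+ strand): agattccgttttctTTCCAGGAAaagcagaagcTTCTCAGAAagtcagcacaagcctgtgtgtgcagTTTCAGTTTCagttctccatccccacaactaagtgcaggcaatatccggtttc
Tgtp2 chr11:49064213-49064332 (- strand): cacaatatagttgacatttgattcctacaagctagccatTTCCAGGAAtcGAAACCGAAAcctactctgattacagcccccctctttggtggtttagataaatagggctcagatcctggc
Igtp chr11:58199436-58199555 (+ strand): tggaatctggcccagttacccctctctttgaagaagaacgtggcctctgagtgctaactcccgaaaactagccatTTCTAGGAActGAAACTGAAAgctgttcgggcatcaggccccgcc
Irgm2 chr11:58214857-58214976 (+ strand): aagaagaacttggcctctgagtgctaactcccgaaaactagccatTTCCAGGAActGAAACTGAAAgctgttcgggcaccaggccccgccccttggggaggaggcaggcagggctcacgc

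Counted back from the start, the GAS match begins at -90 in Irf1, -42 in Icam1 and -109 in Fcgr1. In Socs1 the ISRE matches begin at -83 and -77. Gbp7 has GAS matches at -106 and -87 and an ISRE match at -53. In Tgtp2, Igtp and Irgm2 a GAS match is followed by an ISRE match that begins 11 bases further on, at -81 and -70 in Tgtp2, -45 and -34 in Igtp, and -75 and -64 in Irgm2. The windows of Igtp and Irgm2 share a run of 38 identical bases. Those of Tgtp2 and Irgm2 share a run of 17 that covers the GAS match, so Tgtp2, Igtp and Irgm2 are not independent examples. Over all genes, 38 promoters held both motifs within 250 bases and 19 of those genes were called higher. The 11-base spacing occurred in 5 of the 38. Of these, Tgtp1, Tgtp2, Igtp and Irgm2 are on the IRG list, and Gm12185, which is not listed, overlaps Tgtp1 in the annotation. A spacing of 6 bases was found in 6 of the 38, of which Itpka, Myd88, Bcor and Ncf1 were called higher and Bst2 and Xndc1 were not called.

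Motif matches were more common among the genes with the largest folds. RefSeq promoters were matched for 10781 of the 14626 genes tested (73.7%), and in the 250 bases before the start 5.70% of all of these held a GAS match and 2.88% an ISRE match. Among 74 genes that rose by 16-fold or more, 17 promoters (23%) held a GAS match and 21 (28.4%) an ISRE match. Without the genes of the GBP and IRG lists 12 and 13 of 65 promoters held these matches. Gm12250 (4.19) and Gm12185 (4.11), which hold both motifs, are not on those lists and stay among the 65. The 65 may therefore still hold unlisted genes of these GTPase families. Genes that rose by 4-fold to under 16-fold held them in 14 and 18 of 148 promoters, and those that rose by under 2-fold had 6.12% and 2.88%, close to all genes. Of the 1018 genes called lower 5.21% held a GAS match and 1.57% an ISRE match. Of the 12 promoters matched for genes of the GBP and IRG lists, 6 held a GAS match and 10 an ISRE match. A match of these letters is a description of the sequence and does not show that a factor binds there.

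**Figure D3:**
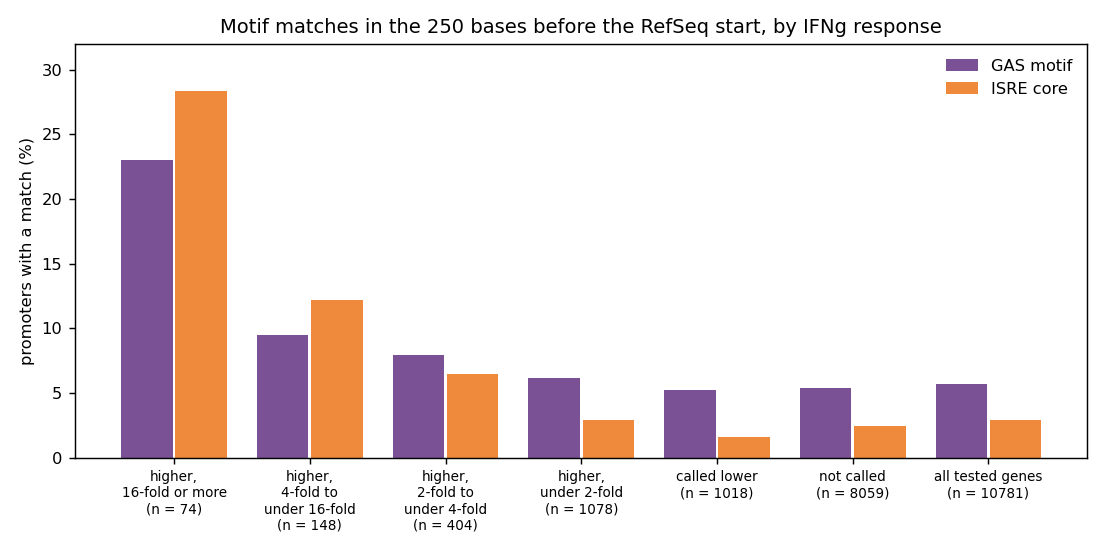
Share of promoters (%) with a GAS match (purple) or an ISRE core match (orange) in the 250 bases before the RefSeq start, by the size of the IFNg response, with the number of promoters under each pair of bars. The share with an ISRE match is 28.4% for genes that rose by 16-fold or more and 2.88% for genes that rose by under 2-fold.

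In the antigen presentation pathways, the activator of class I genes and the peptide transporter rose, the abundant class I chains showed small differences, and most class II genes were not called. Nlrc5, the activator of class I genes, had 160.2, 181 and 232 CPM with IFNg, against 7.29, 5.43 and 18.4 CPM unstimulated (4.31 ± 0.35, adjusted p = 3.3e-06). Tap1, a subunit of the pump that carries peptides into the endoplasmic reticulum, had 538, 599.6 and 606 CPM with IFNg, against 50.2, 63.6 and 109.9 CPM unstimulated (3.03 ± 0.34). Its partner Tap2 (2.40), and the loading proteins Tapbpl (2.80) and Tapbp (1.44) also rose. The class I heavy chain gene H2-D1 was not called (0.28 ± 0.12). Another, H2-K1 (0.45 ± 0.12), was called, but its adjusted p was 0.0734 without IFNg library 1, 0.0549 without IFNg library 3 and 0.0902 without unstimulated library 1. In all 12 of 18 class I genes were called higher and 0 lower (median 0.67), but 7 without the block and 7 without the number 1 libraries or without those of number 2. Reads of H2-Q genes and other near-identical class I copies are uncertain. Among proteasome subunits, the 3 immunoproteasome catalytic subunits rose, Psmb9 to 188, 212 and 222 CPM with IFNg against 33.4, 35.7 and 61.8 CPM unstimulated (2.28 ± 0.16), Psmb8 by 1.49 ± 0.15 and Psmb10 by 1.37 ± 0.15. The constitutive subunits they replace, Psmb6 (0.15), Psmb5 (0.13) and Psmb7 (0.21), were not called. Over 21 proteasome genes 11 were called higher and 0 lower (median 0.45).

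Ciita, the activator of class II genes, had 17.9, 15.6 and 10.21 CPM with IFNg, against 0, 0 and 0.169 CPM unstimulated, which is 682 reads against 3 (ratio 243, 95% counting interval 82.8 to 1180). The IFNa libraries held 0 reads of it. The invariant chain Cd74 rose to 49.1, 66.3 and 33.5 CPM with IFNg, against 21.6, 30.1 and 26.9 CPM unstimulated (0.91 ± 0.16). The class II chain H2-Aa stayed low, at 2.77, 2.95 and 0.905 CPM with IFNg and 0.968, 0.483 and 0.450 CPM unstimulated, and did not pass the test (adjusted p = 0.13), nor did its partner H2-Ab1 (0.35 ± 0.66). The class II list as a whole had 5 of 17 genes called higher and 0 lower (median 0.45), and 3 without the number 2 libraries. Its share of all reads was 0.0361%, 0.0378% and 0.034% with IFNg, against 0.0392%, 0.0388% and 0.0381% unstimulated. In TMM-scaled CPM the sums ran the other way, with 350.0 to 400.4 CPM with IFNg and 318.2 to 372.7 CPM unstimulated, so the direction of the summed level depends on the scaling.

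**Figure D4:**
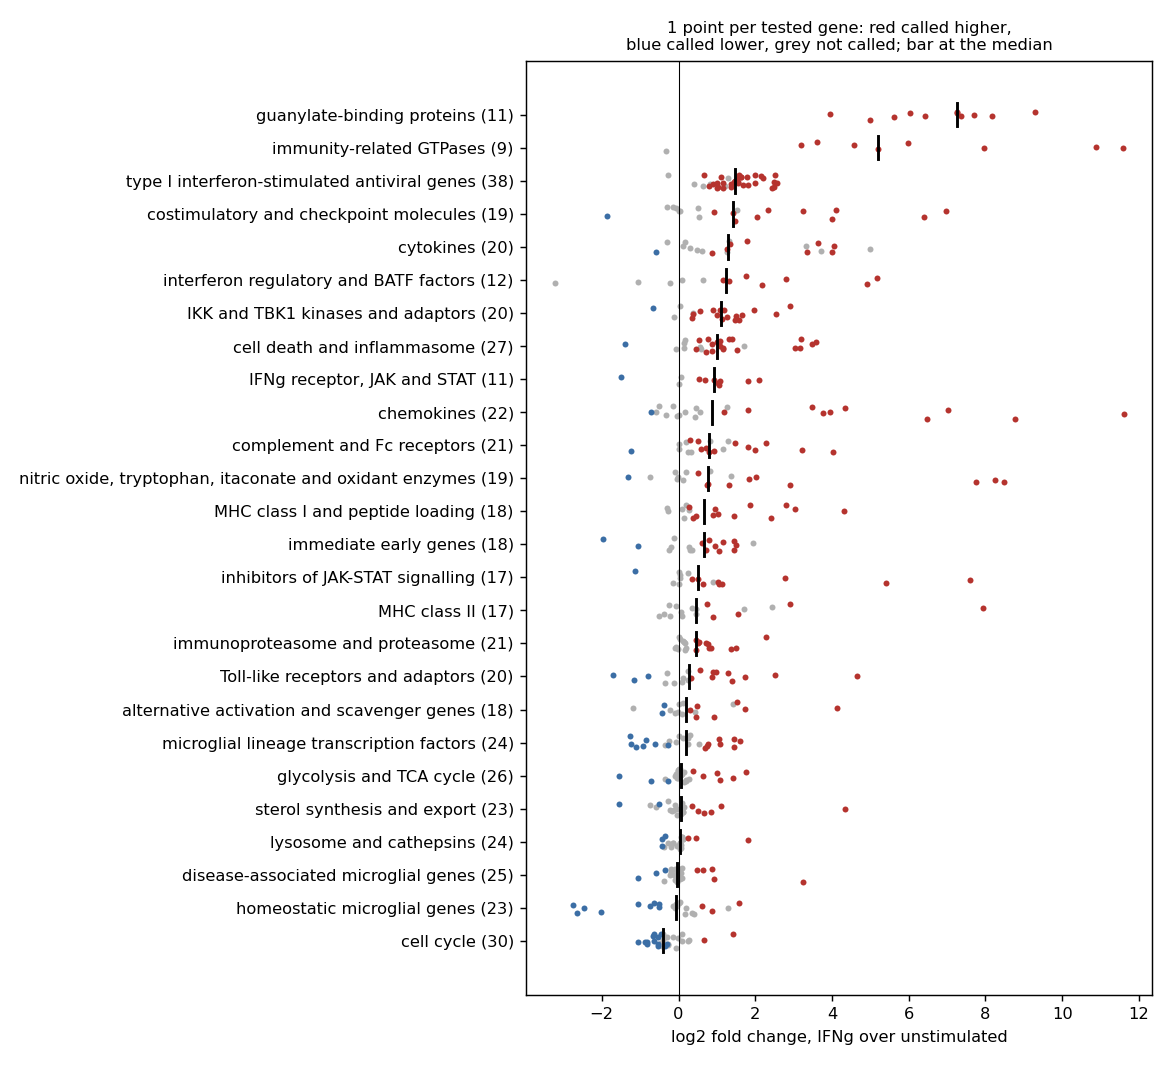
Log2 fold change of IFNg over unstimulated (horizontal axis) for every tested gene of 26 function lists, 1 row per list with the number of genes tested, ordered by the list's median (black bar). Red points were called higher, blue points lower and grey points were not called; GBP and IRG genes stand at the top with medians of 7.25 and 5.20, and cell cycle genes at the bottom with -0.40.

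Among chemokines, the ligands of the T cell receptor CXCR3 and of the monocyte receptor CCR2 rose, and neutrophil-attracting ones did not pass the test. Cxcl9 had 451, 576 and 233 CPM with IFNg, against 0, 0 and 0.338 CPM unstimulated, or 19473 reads against 6 (11.61 ± 1.22, with limma-voom adjusted p = 0.0734). The third IFNg library had less than the other two but far more than any unstimulated library. Cxcl10 had 589.7, 886 and 629.8 CPM with IFNg, against 1.03, 0.845 and 2.98 CPM unstimulated (8.78 ± 1.00), and Cxcl11 rose as well (7.04 ± 0.90). Ccl2 (4.33 ± 0.47), Ccl7 (3.48 ± 0.54) and Ccl12 (6.48 ± 0.66), all ligands of CCR2 and related in sequence, rose, as did Cxcl16 (1.19 ± 0.09), a membrane-bound chemokine. The neutrophil attractants Cxcl1 (-0.59) and Cxcl2 (-0.50) were not called. In all 10 of 22 chemokine genes were called higher and 1, Ccl3, lower (median 0.88). The adjusted p of Ccl3 (-0.72 ± 0.23) was 0.0931, 0.137 and 0.118 without IFNg library 1, 2 or 3, and 0.0598 and 0.197 without unstimulated library 2 or 3.

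Among cytokine genes, Tnf, Il27, Il1rn, Il18 and Il18bp were among those that rose, and most of the list was not called. Tnf had 116, 143 and 44.8 CPM with IFNg, against 5.29, 6.39 and 4.84 CPM unstimulated (4.05 ± 0.29, adjusted p = 3.2e-07). Il27, which encodes a subunit of a cytokine of the IL-12 family, rose by 3.64 ± 0.62, and Il1rn, the natural antagonist of IL-1, by 3.34 ± 0.32. Il18 (1.79 ± 0.14) and Il18bp (1.27 ± 0.20), the cytokine that induces IFNg and its binding protein, rose together. Il6 (3.33 ± 1.92), Il10 (4.98 ± 1.99) and Il12b (3.71 ± 2.12) had wide errors and were not called. Of 20 cytokine genes tested of 24 listed, 8 were called higher and 1 lower (median 1.30), but 5 higher without the number 1 libraries and 0 lower without the block.

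Acod1, the enzyme that makes the antibacterial metabolite itaconate, was one of the genes that rose most, and had 604, 749 and 759 CPM with IFNg, against 1.94, 0.664 and 3.32 CPM unstimulated (8.49 ± 0.67). Nos2, the inducible nitric oxide synthase, stayed low, with 0.843, 1.51 and 5.04 CPM with IFNg and 0 reads unstimulated. Its 114 reads over the IFNg group make it at least 40.6-fold higher against the floor of 3 counts. Kmo, an enzyme of tryptophan breakdown, had 272 reads with IFNg and 1 unstimulated (ratio 291, 95% counting interval 51.8 to 11500), but its adjusted p was 0.0742 without the number 3 libraries. Wars (2.03), a tryptophan tRNA synthetase, Sod2 (1.83), the mitochondrial superoxide dismutase, and the NADPH oxidase subunits Ncf1 (0.75) and Ncf4 (0.78) rose. Hmox1, the antioxidant enzyme that degrades haem, fell, with 214, 206 and 182 CPM with IFNg against 479, 581 and 452 CPM unstimulated (-1.33 ± 0.12). The list held 10 genes called higher and 1 lower of 19 tested (median 0.78).

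Surface molecules that engage T cells changed in both directions. Cd40, the receptor for T cell help, had 81.1, 100.4 and 77.4 CPM with IFNg, against 0.194, 0.845 and 0.956 CPM unstimulated (6.97 ± 0.48). Cd274, which encodes the checkpoint ligand PD-L1, had 602, 712 and 517 CPM with IFNg, against 29.7, 41.7 and 42.8 CPM unstimulated (4.01 ± 0.34, adjusted p = 5.2e-06). Icam1, an adhesion molecule, had 765, 904 and 552 CPM with IFNg, against 41.3, 41.9 and 43.4 CPM unstimulated (4.11 ± 0.29). All 3 genes were higher in each IFNg library than in any unstimulated library. Slamf8 (6.41 ± 0.60), a regulator of macrophage oxidant production, Slamf7 (3.26 ± 0.22), Tnfrsf14 (2.33 ± 0.23) and Cd86 (2.05 ± 0.24) rose too, and Cd80, the other ligand of CD28, was not called (0.51 ± 0.63). Vsir, which encodes the inhibitory checkpoint protein VISTA, went the other way, with 107, 109 and 130 CPM with IFNg against 349, 460.5 and 445 CPM unstimulated (-1.85 ± 0.17, adjusted p = 6.7e-07). Of 19 such genes tested, 10 were called higher and 1 lower (median 1.43), or 3 lower with total counts.

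Complement and Fc receptor genes rose in part. Fcgr4, an activating receptor for IgG, had 414, 486 and 649.8 CPM with IFNg, against 36.2, 45.6 and 99.8 CPM unstimulated (3.21 ± 0.24), and the high-affinity receptor Fcgr1 (1.82 ± 0.22) and Fcgr3 (1.46 ± 0.19) also rose. Serping1, the inhibitor of the complement enzymes C1r and C1s, rose by 4.03 ± 0.68, and the central component C3 by 2.28 ± 0.27. The C1q chains, already abundant in unstimulated microglia, rose by small amounts, C1qb by 0.72 ± 0.08, C1qc by 0.58 ± 0.10 and C1qa by 0.52 ± 0.08. By length-corrected level C1qb averaged 4290 TPM with IFNg and 2902 TPM unstimulated. The list held 12 genes called higher and 1 lower of 21 (median 0.79), where the lower one was C5ar1, the receptor for the complement fragment C5a (-1.23 ± 0.32). Its adjusted p was 0.0614 and 0.0787 without IFNg library 1 or 2 and 0.0558 without unstimulated library 1.

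Cell death genes were mostly higher. Casp4, the protease of the noncanonical inflammasome that GBPs help to activate, had 168, 207 and 167 CPM with IFNg, against 11.9, 18.34 and 14.7 CPM unstimulated (3.60 ± 0.20). Mlkl, the executor of necroptosis, rose by 3.16 ± 0.35, and Zbp1, a nucleic acid sensor that triggers it, by 3.04 ± 0.38. Casp1 (1.53), the adaptor Pycard (1.41) and the pore protein Gsdmd (0.87) rose, and so did Bcl2l1 (1.07) and Cflar (1.08), which restrain apoptosis. Fas, the gene mutated in lpr, was low in all 6 libraries, at 1.63, 2.06 and 2.00 CPM with IFNg and 1.29, 0.181 and 0.675 CPM unstimulated, and did not pass the test (1.72 ± 0.66, adjusted p = 0.0707). The list held 19 genes called higher and 1 lower of 27 tested (median 1.01), and 0 lower without the number 1 libraries.

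The study's title names IKBKE, the kinase IKKε, which with its relative TBK1 phosphorylates IRF3. Ikbke had 41.8, 44.4 and 42.8 CPM with IFNg, against 5.87, 6.64 and 9.67 CPM unstimulated, a log2 fold change of 2.55 ± 0.20 (adjusted p = 1.3e-07). The means were 43.0 ± 1.32 CPM with IFNg and 7.39 ± 2.01 CPM unstimulated (SD, n = 3 each). It lay higher with TNFa, at 162, 194 and 221 CPM, and lower with IFNa, at 19.7, 28.1 and 16.6 CPM, and the direct contrasts of IFNg gave -2.15 ± 0.18 against TNFa and 1.00 ± 0.18 against IFNa, both called. Tbk1 was not called, with 85.1, 104 and 80.0 CPM with IFNg and 68.4, 67.2 and 70.2 CPM unstimulated (adjusted p = 0.051). Tmem173, which encodes the DNA-sensing adaptor STING, had 217, 265 and 239 CPM with IFNg, against 24.8, 29.7 and 43.6 CPM unstimulated (2.90 ± 0.33). The NF-κB subunits Relb (1.97), Nfkb2 (1.57) and Nfkb1 (1.27) and their feedback inhibitors Nfkbia (1.66) and Tnfaip3 (1.49) rose. Ikbkb (0.05) and Ikbkg (-0.12), of the classical IKK complex, were not called, and Chuk, the third subunit, rose (0.55). Of 20 genes tested 16 were called higher and 1, the RNA-sensing adaptor Mavs (-0.68), lower (median 1.11).

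Toll-like receptors diverged. Tlr9, a sensor of DNA, had 136, 143 and 342 CPM with IFNg, against 23.1, 24.2 and 62.7 CPM unstimulated (2.52 ± 0.16), with number 3 highest in both groups. Tlr12, a sensor of a parasite protein in mice, rose by 4.66 ± 0.46, and Tlr1 (1.30), Tlr6 (0.89) and the shared adaptor Myd88 (1.38) rose by less. Cd14, the coreceptor for bacterial lipopolysaccharide, fell (-1.16 ± 0.11), and Tlr7, a sensor of RNA, was not called (0.24 ± 0.13). Of 20 genes 10 were called higher and 3 lower (median 0.28), but 6 higher without the number 1 libraries and 1 lower without the block.

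Antiviral genes that are best known as targets of type I interferon also rose after IFNg. Isg15, a ubiquitin-like modifier, had 374, 404 and 628 CPM with IFNg, against 66.1, 75.2 and 186 CPM unstimulated (2.21 ± 0.33). Mx1, a GTPase that blocks influenza virus, rose by 1.99 ± 0.35, Parp14, which modifies proteins with ADP-ribose, by 2.14 ± 0.20, and Uba7, the enzyme that activates ISG15, by 1.69 ± 0.13. Rsad2, which encodes viperin, had 404, 424 and 863 CPM with IFNg, against 45.8, 53.1 and 265 CPM unstimulated, with unstimulated library 3 well above the other two. Its call (2.52 ± 0.68) was lost with an adjusted p of 0.0591 and 0.0507 without IFNg library 1 or 2, and of 0.089 and 0.0928 without unstimulated library 1 or 2. Of 38 such genes 32 were called higher and 0 lower (median 1.48), but 19 without the block, 16 without the number 1 libraries and 16 without the number 2 libraries. Number 3 was the highest library in both groups for the summed reads of these genes, as given above.

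Among genes of resting microglia more were called lower than higher. Cx3cr1, the receptor for the neuronal chemokine fractalkine, had 145, 126 and 131 CPM with IFNg, against 811, 958 and 977 CPM unstimulated (-2.76 ± 0.33, adjusted p = 7.1e-05). Gpr34, a lipid receptor, had 16.33, 16.6 and 25.5 CPM with IFNg, against 95.6, 114 and 104 CPM unstimulated (-2.46 ± 0.18). Neither gene's groups overlapped. Gpr183 (-2.63), the oxysterol receptor, Tmem119 (-2.01), Rhob (-1.06) and the TGF-beta receptor Tgfbr2 (-0.75) fell too. P2ry12, the ADP receptor used as a microglial marker, moved against them, with 34.7, 43.1 and 42.2 CPM with IFNg against 15.6, 26.2 and 24.5 CPM unstimulated (0.87 ± 0.17). Csf1r (0.16 ± 0.09) and Trem2 (0.04 ± 0.09) were not called. Of 23 homeostatic genes tested, 3 were called higher (13%) and 9 lower (39.1%), beside 14.7% and 8.97% over all genes (median -0.07). Without the number 1 libraries 1 was called higher.

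Among 24 transcription factors of the lineage, 8 were called higher and 7 lower (median 0.19). Cebpb, a factor of inflammatory macrophages, had 303, 318 and 298 CPM with IFNg, against 101, 99.7 and 98.9 CPM unstimulated (1.62 ± 0.13). Spi1, which encodes PU.1, rose by 0.69 ± 0.10 and Runx1 by 0.75 ± 0.11. Mef2c (-1.11 ± 0.13), a factor of resting microglia, and Mitf (-1.25 ± 0.20), a regulator of lysosomal genes, fell. The number called lower was 4 without IFNg library 2, without IFNg library 3 or without unstimulated library 3, and 5 higher and 4 lower were called without the block. Of 25 genes of disease-associated microglia 5 were called higher (20%) and 3 lower (12%), beside 14.7% and 8.97% over all genes (median -0.03). Without the block these counts were 2 and 1, and without the number 1 libraries 3 were higher. As 5 were lower without mixture library 2 and 10 lower with total counts, the split of this list depends on the setting. Cst7, which encodes a cathepsin inhibitor, rose by 3.25 ± 0.54 and Ank, a pyrophosphate transporter, fell (-1.07 ± 0.18), while Apoe (-0.37 ± 0.17), Spp1 (0.08 ± 0.21) and Lpl (-0.19 ± 0.10) were not called. Of 18 alternative activation and scavenger genes 7 were called higher and 2 lower (median 0.21), but 4 higher without the number 1 libraries, 1 lower without the number 3 libraries and 0 lower without the block. Among those that rose were Timd4, a receptor for dying cells, at 4.14 ± 0.67, Il4ra at 1.51 ± 0.15 and the lectin Clec10a at 1.72 ± 0.31.

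More cell cycle genes were called lower than higher, by small amounts. Of 30 genes 13 were called lower and 2 higher (median -0.40), but 8 lower without IFNg library 1 or without IFNg library 3, 6 lower without the number 1 libraries and 5 lower without the block. The number called higher was 1 without IFNg library 1 or 2 or unstimulated library 1 or 2. The replication helicase subunits Mcm4 (-0.54 ± 0.11) and Mcm5 (-0.63 ± 0.13), the ribonucleotide reductase Rrm1 (-0.46 ± 0.10) and the S-phase factor E2f1 (-0.87 ± 0.14) fell. Mki67, the usual marker of dividing cells, was not called (-0.40 ± 0.18). Ccnd1, which encodes cyclin D1, went the other way, with 379, 352 and 672 CPM with IFNg against 150.5, 149 and 206 CPM unstimulated (1.43 ± 0.16).

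In metabolism, single enzymes changed and most members of the lists were not called. Ch25h, which makes the antiviral oxysterol 25-hydroxycholesterol, had 41.9, 55.1 and 47.2 CPM with IFNg, against 4.07, 2.29 and 1.07 CPM unstimulated (4.35 ± 0.67). The sterol synthesis genes Hmgcs1 (-0.00 ± 0.12) and Sqle (-0.27 ± 0.12) were not called. Of 23 sterol genes 6 were higher (26.1%) and 2 lower (8.7%), but 6 lower with total counts. The number lower was 1 without IFNg library 2 or unstimulated library 3 and 0 without the number 1 libraries. In glycolysis Pfkp (1.76 ± 0.16), Hk2 (1.43 ± 0.13) and the glucose transporter Slc2a1 (1.08 ± 0.13) rose and Gapdh (0.04 ± 0.08) was not called, and Idh1, the cytosolic isocitrate dehydrogenase, fell (-1.54 ± 0.18). Of 26 glycolysis and TCA cycle genes 6 were higher (23.1%) and 3 lower (11.5%), or 6 lower with total counts. Ctsc, a lysosomal protease that activates other proteases, rose by 1.80 ± 0.14. Of 24 lysosomal genes 3 were higher (12.5%) and 3 lower (12.5%), beside 14.7% and 8.97% over all genes. The split depends on the setting: 1 was higher and 8 lower with total counts, and 1 was higher without IFNg library 1. The number lower was 1 without IFNg library 2, 5 without mixture library 2 and 0 without the block. The medians of these 3 lists were 0.06, 0.06 and 0.04 with TMM and below 0 with total counts. Of 18 immediate early genes 9 were higher and 2 lower (median 0.67), among them Zfp36 (1.51 ± 0.12), which degrades cytokine mRNA, and Junb (1.16 ± 0.11) higher, and Nr4a1 (-1.97 ± 0.30) and Dusp1 (-1.04 ± 0.13) lower.

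Outside these lists, the genes with the largest increases included a protease inhibitor cluster. Serpina3f had 1512 reads with IFNg and 1 unstimulated (ratio 1620, 95% counting interval 290 to 63900), and Serpina3g rose by 9.14 ± 0.92; as near-identical neighbours, Serpina3f, Serpina3g, Serpina3h and Serpina3i may share reads. Fgl2, a membrane prothrombinase, had 422, 471 and 984 CPM with IFNg, against 9.30, 7.42 and 25.2 CPM unstimulated (5.57 ± 0.24). Il12rb1, a chain of the receptors for IL-12 and IL-23, rose by 6.36 ± 0.71, the early activation marker Cd69 by 5.88 ± 0.81, the nicotinic acid receptor Hcar2 by 5.68 ± 0.39 and the channel gene Calhm6 by 5.78 ± 0.74. Clic5 (6.42), Sectm1a (7.27), Cdc42ep2 (5.69) and Mmp25 (5.15) were also among the 15 genes with the largest increases there. Olfr56, another of them, overlaps Ifi47, Tgtp1 and Tgtp2 in the annotation, so its reads cannot be told from theirs.

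The largest decreases outside the lists included receptors that guide cell movement. S1pr1, a receptor for sphingosine 1-phosphate, had 15, 8.997 and 7.69 CPM with IFNg, against 131, 183 and 175 CPM unstimulated (-4.01 ± 0.38, adjusted p = 1.1e-05). Cxcr4, the receptor for CXCL12, had 7.65, 6.80 and 3.04 CPM with IFNg, against 71.8, 91.0 and 47.1 CPM unstimulated (-3.59 ± 0.29). The lowest unstimulated library held several times the highest IFNg library for both. Lhfpl2 (-3.31 ± 0.22), Abcd2 (-2.94 ± 0.18), a peroxisomal fatty acid transporter, Pdcd4 (-2.92 ± 0.40), an inhibitor of translation, Sox4 (-2.85 ± 0.43), a developmental transcription factor, and Epor (-2.79 ± 0.43), the erythropoietin receptor, fell as well. Xirp1 (-3.38 ± 0.43) lies within an annotated Cx3cr1 transcript on the same strand, and its fall cannot be told from that of Cx3cr1. By difference in length-corrected level, Actb, which encodes actin, changed by the most among genes called higher, with 13581 TPM with IFNg and 10332 TPM unstimulated, a log2 fold change of 0.55 ± 0.09.

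Direct contrasts with the other cytokines compared no unstimulated library, but they came from the fit of all 18 neonatal libraries, which includes the unstimulated ones. Against IFNa 2058 genes were called (14.1%), 1106 higher with IFNg (7.56%) and 952 lower (6.51%), and 1223 in all without IFNg library 2 or 1309 without IFNa library 1. Against TNFa 3293 were called (22.5%), 2008 higher (13.7%) and 1285 lower (8.79%). Against IL-6 2598 were called (17.8%), 1672 higher (11.4%) and 926 lower (6.33%), with 514 lower without IFNg library 2. With total counts 1597 were higher and 1848 lower against TNFa, and 40.5% of the calls against IL-6 were higher, compared with 64.4% with TMM. These 3 contrasts share the IFNg libraries, so their calls are not independent of one another.

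Compared with IFNa, IFNg gave lower levels of many antiviral genes and higher levels of Socs1, Irf1 and Irf8. Of the 38 antiviral genes 23 were lower with IFNg than with IFNa and 0 higher, with a median log2 difference of -0.85. These genes were listed as targets of type I interferon, so the direction follows in part from the choice of the list. Rsad2 had 404, 424 and 863 CPM with IFNg, against 5654, 7433 and 4082 CPM with IFNa (-3.65 ± 0.71). Its neighbour Cmpk2 (-3.70 ± 0.71), Ifit3b (-4.05 ± 0.55), Ifit1bl1 (-6.05 ± 0.95) and Usp18 (-2.87 ± 0.50) were lower with IFNg as well. In the other direction, Socs1 had 389, 477 and 329 CPM with IFNg, against 41.2, 52.8 and 10.1 CPM with IFNa (3.54 ± 0.66), and Irf1 had 1199, 1385 and 1155 CPM with IFNg, against 186, 227 and 184 CPM with IFNa (2.65 ± 0.38). Irf8 (2.09 ± 0.40), Cdc42ep2 (4.53 ± 0.42), Slamf8 (3.05 ± 0.49), Ralgds (3.11 ± 0.39) and Cxcl9 (3.65 ± 0.70) were also higher with IFNg. Fewer GTPases differed: 3 of 11 GBP genes and 1 of 9 IRG genes were higher with IFNg than with IFNa, and 0 were lower. Gbp2, one of the 3, had 767, 881 and 495 CPM with IFNa. Fas was higher with IFNg than with IFNa (3.19 ± 0.75), at 0.533, 0 and 0.220 CPM with IFNa.

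Against TNFa and IL-6 the same signalling genes can be set side by side. Irf1 had 122, 167 and 231 CPM with TNFa and 52.1, 69.6 and 83.2 CPM with IL-6, and the log2 differences of IFNg from these were 2.90 ± 0.39 and 4.23 ± 0.41, both called. Socs3, which IL-6 is known to induce, had 149, 172 and 108 CPM with IFNg, against 11.8, 9.85 and 3.82 CPM with IFNa, 43.4, 48.6 and 39.4 CPM with TNFa and 167, 205 and 167 CPM with IL-6. The difference between IFNg and IL-6 was -0.35 ± 0.44 and did not pass the test, while those from IFNa (4.08 ± 0.53) and TNFa (1.69 ± 0.46) did. Cx3cr1 had 145, 126 and 131 CPM with IFNg, against 235, 258 and 402 CPM with IFNa, 763, 1042 and 903 CPM with TNFa and 768, 704 and 801 CPM with IL-6. The first of these levels lay below the others in every number, and the differences of IFNg from IFNa (-1.14 ± 0.31), TNFa (-2.73 ± 0.33) and IL-6 (-2.50 ± 0.32) were all called. Tnf had 116, 143 and 44.8 CPM with IFNg, against 78.0, 98.2 and 28.6 CPM with TNFa, a difference of 0.58 ± 0.24 that did not pass the test.

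**Figure D5:**
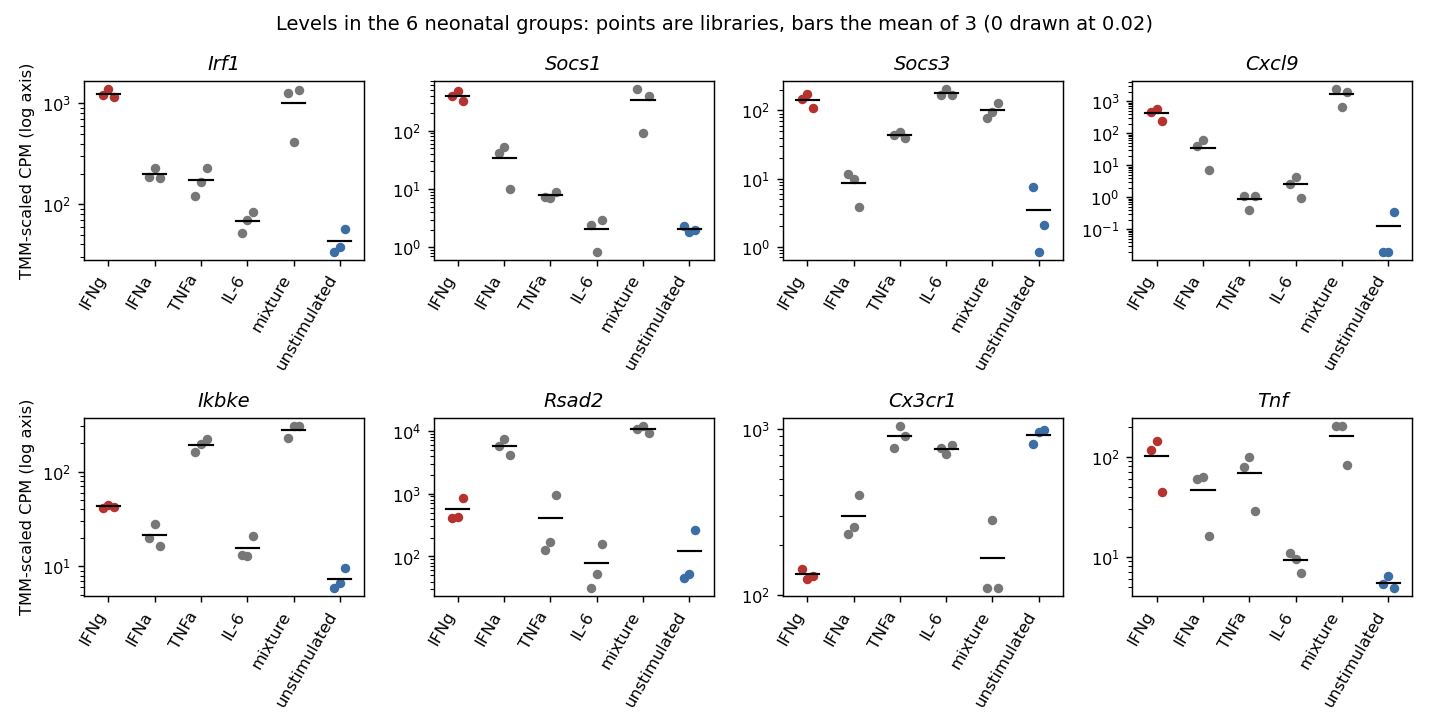
TMM-scaled CPM (log axis, 0 drawn at 0.02) of 8 genes in the 6 neonatal groups, with IFNg in red, unstimulated in blue, points for libraries and bars for the mean of 3. Socs1, Irf1 and Cxcl9 are highest with IFNg and the mixture, Rsad2 with IFNa and the mixture, and Ikbke is higher with TNFa than with IFNg.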

How the data were processed

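Per the labels' protocols, a column kit gave total RNA and the library kit keeps the strand. The tools named in the submitters' processing notes are cutadapt 2.1 and STAR 2.7.1a, and the build is mm10. The deposited table gives the authors' raw read counts per gene (55434 genes, 28481 with a read) and a gene length, with no normalisation. The counting program, annotation and strand setting are not stated in the sources used here. Reads of overlapping genes and near-identical copies are therefore uncertain. Gene names and coordinates came from GENCODE M21, which matched 99.41% of the gene identifiers.

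Tests were made with edgeR 4.0.16 under R 4.3.3, using its robust quasi-likelihood F test after filterByExpr and TMM, with p-values adjusted over all genes tested (Benjamini-Hochberg). All 18 neonatal libraries entered 1 fit with the group and the replicate number as terms, which left 10 residual degrees of freedom (biological coefficient of variation 0.195). The block was kept because libraries of the same number deviated together from their group means: the correlation across genes was above 0.1 for 45 of 45 pairs (0.184 to 0.687; 0.64, 0.452 and 0.419 for IFNg with unstimulated). Standard errors are the size of the log2 fold change over the root of F. TPM was computed from the deposited length and is used only to compare genes. Where a group held 0 reads, the fold is a lower bound against 3 counts over the group; such bounds and the 95% counting intervals cover counting error only. Promoters came from RefSeq on GRCm38.p6 and were matched by symbol. No 2 libraries of a group agreed within counting error, and the scripts were tested on simulated data.

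The 26 function lists, the 13 marker lists and the genes named were chosen with earlier results of these data known. Named are Ikbke and Fas, in each list the called genes with the largest changes and members of the same complex or pair, the 15 largest changes each way outside the lists with no overlap between the groups and a mean log2 CPM from 2 upward, the 10 largest differences in TPM and the 8 largest changes each way against IFNa. Alternatives were other scalings, filters, tests (DESeq2 1.42.0, limma 3.58.1 with voom), the fit without the block, only the 6 libraries, and leaving out libraries.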

Additional observations from a re-analysis of the deposited data

How the results depend on the processing

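Counts of genes called with IFNg against unstimulated were 3468 (2156 higher, 1312 lower). With TMM replaced by RLE size factors they were 2079 higher and 1397 lower, without a filter 1918 and 1501, with a filter of 1 CPM in 3 libraries 2050 and 1453, with DESeq2 2240 and 1587, with limma-voom 2210 and 1509, and with only the 6 libraries and the block 2215 and 1825. Without the replicate block they were 1886 (1254 higher, 632 lower), against IFNa 756 (411 and 345), against TNFa 1868 (1180 and 688) and against IL-6 1221 (838 and 383). With only the 6 libraries and no block, 1957 genes were called (1207 and 750). With total counts 2553 were lower against unstimulated and 1752 against IL-6. Leaving out libraries gave 1984 to 3522 calls (1209 to 2032 higher, 775 to 1490 lower), against IFNa 1223 to 2093 (645 to 951 and 578 to 1142), against TNFa 2528 to 3384 (1617 to 1841 and 911 to 1543) and against IL-6 1769 to 2658 (1255 to 1625 and 514 to 1033). The highest of each came without mixture library 2, chosen after seeing the data, as were the fits without both libraries of a number. Of 344 called genes in the lists or under the naming rule, which include many not printed here, 0 changed sign in any alternative, and 134 lost their call in at least 1, 86 of them without the block. The cause of these changes was not tested. With 3 libraries a group, genes with few reads have wide errors, and a gene that was not called is not shown to be unaffected.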

Other observations

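Genes called higher with IFNg lay next to each other in places, counted over the genes tested in their order on the mm10 chromosomes. The longest run was 10 genes on chromosome 11 from Irgm1 to Ifi47 (48861968 to 49135387), which includes Tgtp1, Tgtp2 and the proteasome activator copy Psme2b. The GBP genes gave runs of 7 genes on chromosome 3 (142239590 to 142746870) and on chromosome 5 (104935057 to 105346472), and the Ifi200 family of DNA-binding proteins a run of 7 on chromosome 1 (173723427 to 173982744). Another run of 7 genes on chromosome 16 (10480059 to 11066157) joined Ciita and Socs1 with Dexi, Clec16a, Prm1, Rmi2 and Litaf. Overlapping gene models and shared reads can lengthen such runs, and their part was not tested.

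In the cytokine mixture, which contains IFNg, library 2 had less of several genes described here than the other mixture libraries, a set chosen after its values were seen. Ciita had 5.65, 0.146 and 5.42 CPM in mixture libraries 1, 2 and 3, Socs1 515, 92.2 and 394 CPM, Irf1 1281, 418 and 1356 CPM and Irf8 2307, 651 and 2690 CPM, while Cx3cr1 had 110.2, 285 and 111 CPM. The library belongs to the fit but to none of the contrasts of the report.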
